A study of Mus musculus with 13 samples.

Results

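The 10 abundant long noncoding RNAs described here were followed through systemic inflammation and its treatment in the neurovascular fraction of the mouse brain: *Neat1*, *Malat1*, *Meg3*, *Rian*, *Mirg*, *Miat*, *Kcnq1ot1*, *Snhg11*, *Snhg14* and *Peg13*. They are 10 of the 47643 genes of the count table, found by their Ensembl identifiers once the version was dropped, and all 10 passed the filter on low counts, as did 17285 genes in all. They were selected on measured values of these same mice: for their abundance, and because *Neat1* was lower after the inhibitor CPD-4645 while *Malat1* was not. The comparison of LPS-CPD-4645 with LPS-vehicle is therefore given for these RNAs as a description, with no test, and so are all comparisons of *Neat1* and *Malat1*, which share mice with it.

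RNA was sequenced from 13 male CD1 mice aged 8 to 10 weeks, 1 library per mouse. The sham-vehicle group held 4 mice that received phosphate-buffered saline in place of lipopolysaccharide (LPS) and the vehicle of the drug (DMSO, Cremophor and saline), the LPS-vehicle group 5 mice that received this vehicle and LPS of *Salmonella* at 3 mg/kg intraperitoneally at 0, 6 and 24 h, and the LPS-CPD-4645 group 4 mice that received the same LPS and CPD-4645 at 10 mg/kg subcutaneously 30 min after each dose by the labels, though the study's text also gives a longer delay. CPD-4645 is a covalent inhibitor of monoacylglycerol lipase (MAGL), the enzyme that degrades the endocannabinoid 2-arachidonoylglycerol, and no group received it without LPS. The tissue was taken at 28 h from brains that had not been perfused, so blood cells were part of the material, and in such bulk RNA fewer cells of a type and less RNA per cell cannot be told apart.

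Long noncoding RNAs act as RNA rather than through a protein. *Neat1* builds paraspeckles, nuclear bodies that hold RNA-binding proteins, and *Malat1*, its neighbour on the chromosome, gathers in nuclear speckles, where splicing factors are stored. *Meg3*, *Rian* and *Mirg* are maternally expressed from the imprinted Dlk1-Dio3 domain, *Kcnq1ot1*, *Snhg14* and *Peg13* come from other imprinted domains and are expressed from the paternal copy, and *Miat* and *Snhg11* are typical of neurons in the brain.

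The libraries held 7813559 to 55133373 counts, the shallowest being mouse 1 of LPS-CPD-4645 and mouse 3 of LPS-vehicle, and mitochondrial genes took 3.97% to 12.7% of the counts. The 10 RNAs together took 0.291% to 0.626% of the counts of a library. All 10 endothelial markers listed and all 15 neuronal markers listed were counted in every group. The summed level of the endothelial markers in CPM (counts scaled to a common TMM library size) ran from 436 to 702 among sham-vehicle mice, from 496 to 1060.4 among those of LPS-vehicle and from 609 to 829.8 among those of LPS-CPD-4645. That of the neuronal markers was 13264 to 15392 CPM, 11130.0 to 12331 CPM and 12033 to 14992 CPM in the same order, so neuronal transcripts were abundant in the fraction.

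Per kilobase of exon, the RNAs spanned a wide range of levels in sham-vehicle mice. *Snhg11* was highest at 164.0 ± 6.48 CPM per kb (SD, n = 4), followed by *Meg3* at 77.6 ± 4.59, *Peg13* at 63.0 ± 3.26, *Malat1* at 41.6 ± 11.8, *Rian* at 19 ± 1.75, *Miat* at 9.89 ± 0.855, *Mirg* at 8.67 ± 0.536, *Neat1* at 4.75 ± 0.398, *Snhg14* at 2.10 ± 0.335 and *Kcnq1ot1* at 0.333 ± 0.128 CPM per kb. Only *Miat* and *Mirg* overlapped among neighbours in this order, with 9.17 to 11.1 and 8.12 to 9.38 CPM per kb. By CPM over all 13 mice, *Meg3* and *Snhg11* ranked 1 and 2 among 1257 long noncoding RNA genes tested (*Snhg11* included), and *Kcnq1ot1*, whose single exon is 93092 bases long, ranked 52. CPM is not divided by length and favours long genes. Per kilobase of exon, *Snhg11* ranked 3, *Meg3* 8, *Peg13* 11 and *Malat1* 12 among the 1257, whereas *Neat1* ranked 129, *Snhg14* 294 and *Kcnq1ot1* 951. The last 3 thus ranked lower by level per length than by CPM, where they ranked 10, 38 and 52. For *Neat1* the exon length used was 20771 bases, though a transcript of 3004 bases is also annotated. Its level per kb depends on which form was counted.

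The plot of levels by mouse shows the 10 RNAs side by side.

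**Figure D1:**
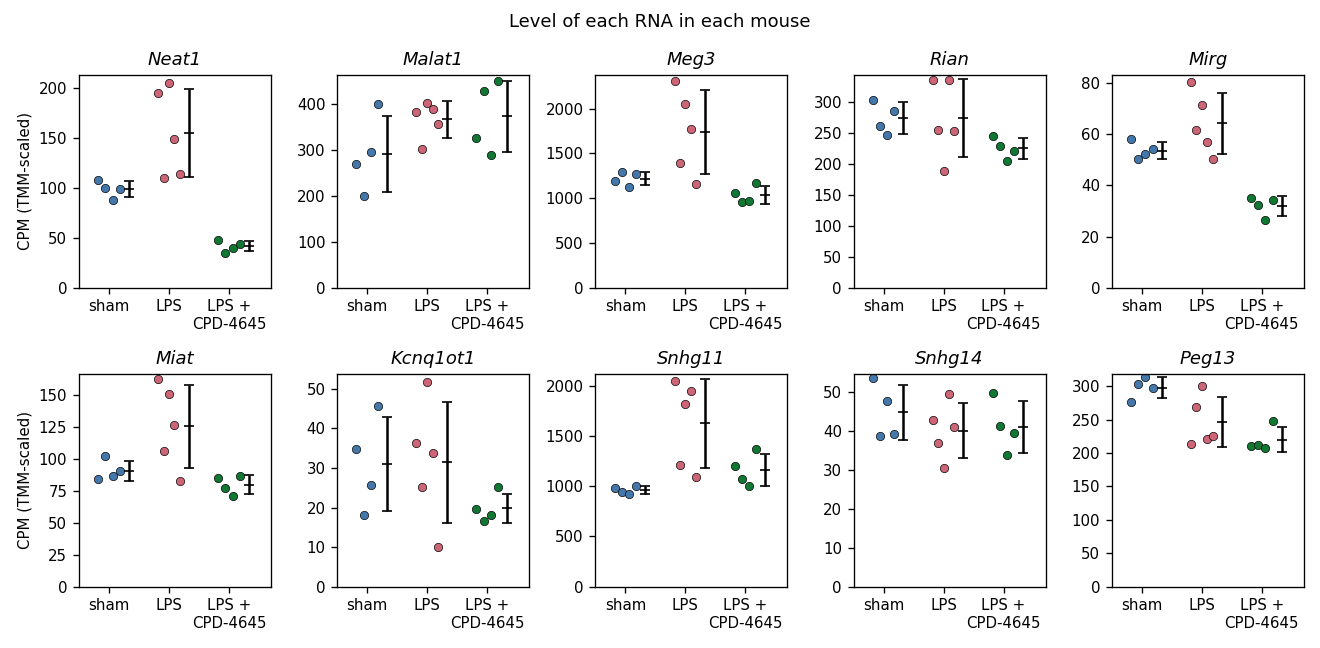
Level of each RNA in CPM (TMM-scaled, linear axis from 0) in each of the 13 mice, with the mean and SD of each group as a bar to the right of its points. *Neat1* and *Mirg* in the 4 LPS-CPD-4645 mice sit below every other mouse, while the 3 groups of *Malat1* and *Snhg14* overlap.

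*Neat1* lies at chr19:5824708-5845478 on the minus strand of GRCm38, and *Malat1* at chr19:5795690-5802672 on the same strand, each as 1 block of exon. *Neat1* is made in a short form with a poly(A) tail and a long form whose end is cut from the primary transcript, and the libraries were made from poly(A) RNA, so the transcript ends are shown. The last 60 bases of 3 transcripts in GENCODE M21 follow, 5′ to 3′, with a poly(A) signal (AATAAA or ATTAAA) in capitals; they lie at chr19:5842307-5842366 for the short *Neat1* transcript of 3004 bases, chr19:5824708-5824767 for the long one of 20771 bases and chr19:5795690-5795749 for *Malat1*, all on the minus strand.
Neat1 short transcript: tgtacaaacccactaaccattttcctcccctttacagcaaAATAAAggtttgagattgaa
Neat1 long transcript: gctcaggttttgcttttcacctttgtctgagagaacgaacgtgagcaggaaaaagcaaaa
Malat1: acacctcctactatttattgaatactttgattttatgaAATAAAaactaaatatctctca
The short *Neat1* transcript and *Malat1* each held 1 signal, starting 20 and 22 bases before the end, and the long *Neat1* transcript held 0 in these 60 bases. The table has 1 count per gene, so the forms of *Neat1* were not separated. These are annotated ends, and a signal in them does not show which molecules of *Malat1* or *Neat1* carried a poly(A) tail.

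*Neat1* was at 108, 99.8, 88.0 and 98.9 CPM in the 4 sham-vehicle mice, at 194.6, 109.8, 204, 148.6 and 114 CPM in the 5 LPS-vehicle mice, and at 47.3, 35.1, 40.0 and 44.2 CPM in the 4 LPS-CPD-4645 mice. The 3 groups did not overlap: LPS-vehicle mice were all above the sham-vehicle mice, mouse 2 by less than 2 CPM, and LPS-CPD-4645 mice were below both. The means were 98.7 ± 8.27 (SD, n = 4), 154 ± 44.1 (n = 5) and 41.6 ± 5.29 CPM (n = 4). As a log2 fold change this was 0.64 (SE 0.16) for LPS-vehicle against sham-vehicle, -1.89 (SE 0.17) for LPS-CPD-4645 against LPS-vehicle, a level 3.70-fold lower, and -1.25 (SE 0.17) for LPS-CPD-4645 against sham-vehicle, 2.38-fold lower. Leaving out any 1 of the 13 mice kept the second value between -1.99 and -1.77. *Neat1* was selected on that value, so the range is a description and lends it no support.

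*Malat1* was at 268, 200.5, 295 and 399 CPM in sham-vehicle, at 383, 301, 401, 389 and 356 CPM in LPS-vehicle, and at 325, 427.5, 289.6 and 449.9 CPM in LPS-CPD-4645 mice. All 3 groups overlapped, with sham-vehicle mouse 4 as high as the LPS-vehicle mice. The log2 fold changes were 0.33 (SE 0.16) for LPS-vehicle against sham-vehicle and 0.03 (SE 0.16) for LPS-CPD-4645 against LPS-vehicle. LPS-CPD-4645 was 0.36 (SE 0.17) from sham-vehicle. Single sham-vehicle mice moved both values against that group: LPS-vehicle was 0.19 above it without sham-vehicle mouse 2 and 0.52 without sham-vehicle mouse 4, and LPS-CPD-4645 was 0.23 and 0.56 above it. *Malat1* shares 453 exon bases with Gm37376 on the other strand, and the strand setting of the counting was not given in the sources used here.

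The ratio of *Neat1* to *Malat1* counts within a library, which no scaling between libraries can alter, was 0.403, 0.498, 0.298 and 0.248 for the sham-vehicle mice, 0.508, 0.365, 0.510, 0.382 and 0.320 after LPS and vehicle, and 0.145, 0.0821, 0.138 and 0.0983 after LPS and CPD-4645. Sham-vehicle and LPS-vehicle mice overlapped, and each LPS-CPD-4645 mouse was lower than all of them. On the log2 scale LPS-vehicle was 0.23 above sham-vehicle, a value that ran from 0.07 without sham-vehicle mouse 4 to 0.40 without sham-vehicle mouse 2 and was 0.15 without LPS-vehicle mouse 1 or 3. On the same scale, LPS-CPD-4645 was 1.86 below LPS-vehicle (-1.86), a ratio 3.63-fold lower.

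**Figure D2:**
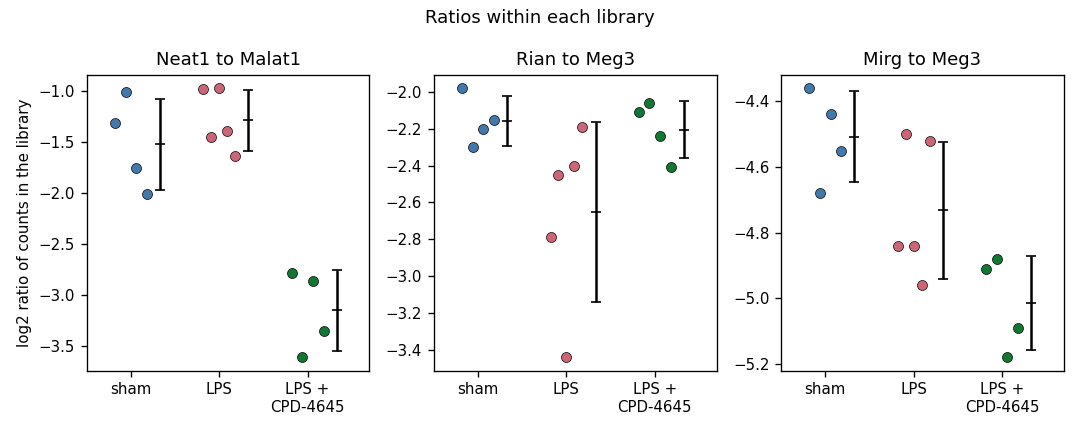
Log2 ratio of counts of *Neat1* to *Malat1*, *Rian* to *Meg3* and *Mirg* to *Meg3* within each library, with mean and SD per group. The LPS-CPD-4645 mice lie from -3.61 to -2.78 for *Neat1* to *Malat1*, below all others, and LPS-vehicle mouse 3 is lowest at -3.44 for *Rian* to *Meg3*.

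Marker RNAs of neutrophils, blood cells that enter the brain vessels in inflammation, were on average highest in LPS-vehicle mice, as was *Neat1*. The summed level of the 9 neutrophil markers ran from 3.65 to 11.2 CPM among sham-vehicle mice, from 71.7 to 288 CPM among those of LPS-vehicle and from 7.94 to 28.4 CPM among those of LPS-CPD-4645. Of the 8 markers tested, 7 were higher and 0 lower in LPS-vehicle than in sham-vehicle, and 0 were higher and 8 lower in LPS-CPD-4645 than in LPS-vehicle. No marker was at 0 counts throughout a group, and *Ly6g*, the marker not tested, averaged 0.159 CPM in LPS-vehicle mice. LPS-vehicle mouse 2 had the highest neutrophil sum, 288 CPM, and the lowest *Neat1* of its group, 109.8 CPM, and *Neat1* in LPS-CPD-4645 mice was below sham-vehicle although their median neutrophil sum, 20.1 CPM, was above the 9.73 CPM of sham-vehicle. The part of neutrophil RNA in the *Neat1* values was not tested.

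Proteins that build paraspeckles with *Neat1* were examined next. Of 16 tested, 0 were higher and 2 lower in LPS-vehicle than in sham-vehicle, beside 11.1% and 8.86% of all genes, with a median log2 fold change of -0.06, beside 0 over all genes: *Pspc1*, a core paraspeckle protein, by -0.51 (SE 0.11, adjusted p = 0.0035) and *Sfpq*, which stabilizes *Neat1*, by -0.34 (SE 0.10, adjusted p = 0.024), both by edgeR with Benjamini-Hochberg adjustment over all genes. In LPS-CPD-4645 against sham-vehicle, 6 were higher and 3 lower (median 0.12), beside 19.5% and 19.3% of all genes. Compared with LPS-vehicle, 3 were higher and 2 lower (median 0.13), beside 14.1% and 16.4% of all genes. Of 15 nuclear speckle proteins, where *Malat1* resides, 3 were higher and 0 lower after LPS (median 0.20), namely the kinases *Clk1* (0.42, SE 0.12) and *Clk4* (0.41, SE 0.11) and the scaffold *Srrm2* (0.30, SE 0.09), and 7 were higher and 0 lower in LPS-CPD-4645 against sham-vehicle (median 0.25). *Clk1* (-0.12) and *Clk4* (-0.06) were not among these 7. Compared with LPS-vehicle, 4 of the 15 were higher and 2 lower (median 0.12). The 2 lower were *Clk1* (-0.55, SE 0.12) and *Clk4* (-0.47, SE 0.11). Of the 11 protein-coding neighbours of *Neat1* and *Malat1* on chromosome 19, 1 was higher and 1 lower after LPS, *Pola2*, a subunit of DNA polymerase alpha, by 1.02 (SE 0.19) and *Cdc42ep2* by -0.60 (SE 0.12). In LPS-CPD-4645 against sham-vehicle *Pola2* was again higher (0.55, SE 0.20), and *Cdc42ep2* (-0.76, SE 0.13), *Frmd8* (-0.63, SE 0.14) and *Slc25a45* (-0.60, SE 0.22) were lower. Against LPS-vehicle 0 of the 11 were higher and 4 lower, *Slc25a45* (-0.88, SE 0.21), *Capn1* (-0.43, SE 0.13), *Ltbp3* (-0.39, SE 0.10) and *Ehbp1l1* (-0.29, SE 0.10).

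*Meg3*, *Rian* and *Mirg* lie in this order on the plus strand of chromosome 12, at chr12:109541001-109571726, chr12:109603940-109661716 and chr12:109729764-109749460. *Mirg* carries 26 mature microRNAs of RefSeq within its bounds, *Rian* 6 and *Meg3* 3. Of those in *Mirg*, 4 are shown with the seed (bases 2 to 8) in capitals, because *Mirg* passed the test against sham-vehicle in LPS-CPD-4645 mice, and the first 2 share their seed.
mmu-miR-453: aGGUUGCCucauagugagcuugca
mmu-miR-496a-5p: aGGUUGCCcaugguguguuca
mmu-miR-134-5p: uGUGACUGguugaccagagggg
mmu-miR-410-3p: aAUAUAACacagauggccugu
They lie on the plus strand of GRCm38.p6 at chr12:109735669-109735692, chr12:109739132-109739152, chr12:109734145-109734166 and chr12:109743764-109743784. The microRNAs themselves were not measured by these poly(A) libraries.

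*Meg3*, a regulator that binds chromatin-modifying complexes, was at 1191, 1287, 1129 and 1264 CPM in sham-vehicle, at 2309, 1396, 2046, 1774 and 1154 CPM in LPS-vehicle, and at 1056, 952, 965 and 1166 CPM in LPS-CPD-4645 mice. LPS-vehicle mouse 5 lay within the sham-vehicle range and the other LPS-vehicle mice above it. *Meg3* was higher in LPS-vehicle than in sham-vehicle by 0.51 on the log2 scale (SE 0.15, adjusted p = 0.022, edgeR, Benjamini-Hochberg adjusted). The call was lost when any of 4 mice was left out, with 0.50 without sham-vehicle mouse 1, 0.48 without sham-vehicle mouse 3, 0.39 without LPS-vehicle mouse 1 and 0.45 without LPS-vehicle mouse 3, and also without both shallowest libraries (0.45, adjusted p = 0.065, edgeR). In LPS-CPD-4645 mice *Meg3* was -0.75 from LPS-vehicle as a log2 fold change, and -0.23 from sham-vehicle (SE 0.16, adjusted p = 0.25 in the same edgeR fit), the latter passing with only the 2 groups compared (-0.23, adjusted p = 0.048, edgeR).

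*Rian*, the host of a large group of small nucleolar RNAs (snoRNAs), was at 303, 261, 246 and 285 CPM in sham-vehicle, at 335, 255, 188.5, 335 and 253 CPM in LPS-vehicle, and at 244.5, 229, 204.5 and 219.6 CPM in LPS-CPD-4645 mice. The LPS-vehicle mice lay on both sides of the sham-vehicle range, and mouse 3, the shallowest library, was lowest of all. The log2 fold change of LPS-vehicle against sham-vehicle was 0.00, with a 95% confidence interval from -0.27 to 0.28. In LPS-CPD-4645 against sham-vehicle it was -0.29 (SE 0.14, adjusted p = 0.11 in the edgeR fit), with every LPS-CPD-4645 mouse below every sham-vehicle mouse. That comparison passed the test once LPS-vehicle mouse 3 was left out of the shared estimate of spread (-0.29, adjusted p = 0.039, edgeR), without both shallowest libraries (-0.33, adjusted p = 0.035, edgeR) and with only the 2 groups compared (-0.28, adjusted p = 0.018, edgeR).

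*Mirg*, the microRNA host, was at 58.0, 50.3, 52.2 and 54.1 CPM in sham-vehicle, at 80.6, 61.9, 71.6, 57.1 and 50.2 CPM in LPS-vehicle, and at 35.2, 32.2, 26.5 and 34.2 CPM in LPS-CPD-4645 mice. Sham-vehicle and LPS-vehicle overlapped, and the LPS-CPD-4645 mice were below both. *Mirg* fell in LPS-CPD-4645 against sham-vehicle by 0.75 on the log2 scale (SE 0.13, adjusted p = 0.00019, edgeR, Benjamini-Hochberg adjusted), a level 1.68-fold lower. Against LPS-vehicle the log2 fold change was -1.0, 2.01-fold lower, and for LPS-vehicle against sham-vehicle it was 0.26 (SE 0.12, adjusted p = 0.15, edgeR), which was 0.16 without LPS-vehicle mouse 1 (adjusted p = 0.38) and passed the test without LPS-vehicle mouse 5 (0.34, adjusted p = 0.045).

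The ratios between the 3 RNAs of the domain were compared within libraries. *Rian* to *Meg3* had geometric means of 0.224 for sham-vehicle, 0.159 for LPS-vehicle and 0.217 for LPS-CPD-4645, and the log2 difference of LPS-vehicle from sham-vehicle was -0.50 (exact permutation test over 4 and 5 mice, two-sided, p = 0.0476, adjusted p = 0.143 over 3 ratios, *Neat1* to *Malat1* included, and 0.0952 over the 2 ratios of the domain). It was -0.30 without LPS-vehicle mouse 3, one of the 2 shallowest libraries, and -0.44 to -0.61 without any other mouse. *Mirg* to *Meg3* was 0.0440, 0.0377 and 0.0309, and LPS-vehicle differed from sham-vehicle by -0.23 (exact permutation test, two-sided, p = 0.127, adjusted p = 0.19 over 3 ratios and 0.127 over 2). Neither difference passed after adjustment. The smallest p this design can give is 0.0159. Among the 6 protein-coding genes of the domain and its flanks tested, 0 were higher and 0 lower after LPS (median -0.08), including the imprinted genes *Dlk1* (-0.34, SE 0.16) and *Rtl1* (-0.01, SE 0.35). None passed in LPS-CPD-4645 against sham-vehicle either, and against LPS-vehicle 1 of 6 did, the tryptophan-tRNA ligase gene *Wars* (0.26, SE 0.09).

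*Miat*, at chr5:112213228-112229395 on the minus strand, was at 84.1, 102, 86.3 and 90.3 CPM in sham-vehicle, at 162, 106, 150.2, 126 and 82.1 CPM in LPS-vehicle, and at 84.8, 76.7, 70.8 and 86.6 CPM in LPS-CPD-4645 mice. LPS-vehicle mouse 5 was below all sham-vehicle mice and the other LPS-vehicle mice above them. The log2 fold change after LPS was 0.46 (SE 0.15, adjusted p = 0.033, edgeR), and the call was lost without sham-vehicle mouse 1 (0.43), 3 (0.44) or 4 (0.46), without LPS-vehicle mouse 1 (0.35), 3 (0.39) or 4 (0.46), without both shallowest libraries (0.39), with only the 2 groups compared (0.46), and in limma-voom (0.41). In LPS-CPD-4645 mice *Miat* was -0.65 from LPS-vehicle and -0.18 from sham-vehicle (SE 0.15, adjusted p = 0.36, edgeR). It shares 1255 exon bases with Gm26953 on the other strand.

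*Snhg11*, at chr2:158375638-158386145 on the plus strand, is a snoRNA host gene that GENCODE M21 types as protein-coding. Its levels were 981, 945, 917 and 1003 CPM in sham-vehicle, 2044.5, 1215, 1823, 1952 and 1093 CPM in LPS-vehicle, and 1201, 1074, 1006 and 1368 CPM in LPS-CPD-4645 mice. Both LPS groups were above every sham-vehicle mouse, LPS-CPD-4645 mouse 3 by less than 3 CPM. *Snhg11* rose after LPS by 0.76 on the log2 scale (SE 0.16, adjusted p = 0.0021, edgeR, Benjamini-Hochberg adjusted), 1.69-fold, and the adjusted p stayed between 0.00018 and 0.0095 with each mouse left out. In LPS-CPD-4645 mice it was -0.48 from LPS-vehicle and 0.27 from sham-vehicle (SE 0.16, adjusted p = 0.20, edgeR), the latter passing with only the 2 groups compared (0.28, adjusted p = 0.035, edgeR).

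The promoters of *Meg3*, *Miat* and *Snhg11* are shown because these 3 RNAs rose together after LPS, and that of *Malat1* beside them. Each is 250 bases before to 50 after the start, from RefSeq on GRCm38.p6, 5′ to 3′ on the gene's strand, and 8 of the 10 RNAs were matched in this set by symbol. Capitals mark matches on either strand to AP-1 (TGANTCA), heat shock element (GAANNTTC), STAT (TTCNNNGAA), hypoxia response (ACGTG), E-box (CACGTG, which contains the hypoxia letters), CCAAT box (CCAAT), Sp1 (GGGCGG), the TATA box (TATAAA) and CRE half-site (TGACG, which can overlap the hypoxia letters). They lie at chr12:109540746-109541045 (plus), chr5:112228899-112229198 (minus), chr2:158375463-158375762 (plus) and chr19:5802623-5802922 (minus).
Meg3: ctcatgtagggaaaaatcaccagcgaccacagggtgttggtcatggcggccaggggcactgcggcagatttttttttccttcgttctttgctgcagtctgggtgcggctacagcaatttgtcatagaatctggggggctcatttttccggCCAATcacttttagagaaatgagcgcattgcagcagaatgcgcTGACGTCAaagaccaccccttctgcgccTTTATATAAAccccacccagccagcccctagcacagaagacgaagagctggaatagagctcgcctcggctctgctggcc
Miat: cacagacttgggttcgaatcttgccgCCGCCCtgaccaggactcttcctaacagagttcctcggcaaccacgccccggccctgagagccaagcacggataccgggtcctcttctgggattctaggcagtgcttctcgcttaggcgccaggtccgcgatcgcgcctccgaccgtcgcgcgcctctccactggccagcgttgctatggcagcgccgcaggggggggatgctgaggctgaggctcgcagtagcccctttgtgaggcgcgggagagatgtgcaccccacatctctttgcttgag
Snhg11: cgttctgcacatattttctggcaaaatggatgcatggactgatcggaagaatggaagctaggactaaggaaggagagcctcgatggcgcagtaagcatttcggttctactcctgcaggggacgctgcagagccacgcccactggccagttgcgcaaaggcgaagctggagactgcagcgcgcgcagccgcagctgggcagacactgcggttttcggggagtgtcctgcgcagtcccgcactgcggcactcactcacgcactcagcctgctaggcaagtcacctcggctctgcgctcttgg
Malat1: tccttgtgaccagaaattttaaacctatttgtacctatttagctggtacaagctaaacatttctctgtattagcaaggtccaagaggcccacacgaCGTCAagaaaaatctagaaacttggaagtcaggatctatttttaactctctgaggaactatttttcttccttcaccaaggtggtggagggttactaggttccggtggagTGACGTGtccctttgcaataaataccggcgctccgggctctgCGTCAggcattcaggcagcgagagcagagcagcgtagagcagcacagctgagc
The RefSeq set lists 2 promoters for *Meg3*. The other, at chr12:109545148-109545447 on the plus strand, held no match to any of these motifs and is not printed. The *Meg3* promoter shown held 2 overlapping CRE half-sites and 2 overlapping TATA boxes, 25 to 29 bases before the start, and 1 CCAAT box. *Malat1* held 3 CRE half-sites and 1 hypoxia response match, *Miat* 1 Sp1 match and *Snhg11* no match. Of 32851 promoters of this length, 20.8% held a CRE half-site, 13.6% a TATA box, 37.4% a CCAAT box, 35.7% an Sp1 match and 19.6% a hypoxia response match. AP-1, STAT, heat shock element and E-box letters, which 7.81%, 8.30%, 7.86% and 7.15% of promoters held, were not in these 4 windows.

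*Kcnq1ot1*, the unspliced antisense RNA that silences genes of its domain, lies at chr7:143203458-143296549 on the minus strand, inside *Kcnq1*. It was at 34.8, 18.1, 25.6 and 45.6 CPM in sham-vehicle, at 36.4, 25.1, 51.8, 33.9 and 9.90 CPM in LPS-vehicle, and at 19.6, 16.5, 18.1 and 25.1 CPM in LPS-CPD-4645 mice. Its coefficient of variation, 38.3% in sham-vehicle and 49.0% in LPS-vehicle, was the highest of the 10 RNAs in both groups, LPS-vehicle mouse 3 being 5.23-fold above mouse 5. Neither comparison with sham-vehicle passed the test. The log2 fold change was -0.01 (95% confidence interval -0.68 to 0.67) for LPS-vehicle against sham-vehicle, -0.64 for LPS-CPD-4645 against LPS-vehicle and -0.64 (SE 0.34, adjusted p = 0.15, edgeR) against sham-vehicle. The last passed without LPS-vehicle mouse 5 (-0.64, adjusted p = 0.043, edgeR), which enters through the shared spread, and with only the 2 groups compared (-0.64, adjusted p = 0.034, edgeR). It ran from -0.82 without sham-vehicle mouse 2 to -0.39 without sham-vehicle mouse 4. Of 8 genes of the domain tested, 0 were higher and 1 lower after LPS, *Cdkn1c*, an inhibitor of the cell cycle (-0.52, SE 0.17), and in LPS-CPD-4645 against sham-vehicle *Ascl2*, a transcription factor, (2.65, SE 0.43) and *Tssc4* (0.66, SE 0.11) were higher and *Cdkn1c* lower (-0.63, SE 0.18). Against LPS-vehicle *Ascl2* (2.17, SE 0.39) and *Tssc4* (0.43, SE 0.10) were higher and 0 were lower.

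*Snhg14*, at chr7:59307924-59975759 on the minus strand, hosts snoRNAs of the Prader-Willi and Angelman region, and its far end runs antisense to the ubiquitin ligase gene *Ube3a*, with which it shares 1803 exon bases. It was at 53.6, 38.7, 47.6 and 39.3 CPM in sham-vehicle, at 42.7, 37.0, 30.4, 49.6 and 41.1 CPM in LPS-vehicle, and at 49.7, 41.4, 33.7 and 39.4 CPM in LPS-CPD-4645 mice. All 3 groups overlapped. The log2 fold changes were -0.15 (95% confidence interval -0.44 to 0.14) after LPS, 0.02 for LPS-CPD-4645 against LPS-vehicle and -0.13 (95% confidence interval -0.44 to 0.17) for LPS-CPD-4645 against sham-vehicle. Of 9 genes of the region tested, 0 were higher and 3 lower after LPS, *Ube3a* by -0.40 (SE 0.11), *Snrpn*, an RNA-binding splicing protein, by -0.27 (SE 0.08) and *Atp10a*, a phospholipid flippase, by -0.59 (SE 0.18). In LPS-CPD-4645 against sham-vehicle 0 were higher and 2 lower, *Ube3a* (-0.55, SE 0.12) and *Atp10a* (-1.29, SE 0.20). Against LPS-vehicle *Peg12* (2.42, SE 0.90, at under 1 CPM) and *Gabra5*, a GABA receptor subunit, (0.30, SE 0.08) were higher and *Atp10a* (-0.69, SE 0.19) lower.

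*Peg13*, at chr15:72805600-72810324 on the minus strand, lies in an intron of *Trappc9* on the same strand. It was at 277, 304, 313 and 297 CPM in sham-vehicle, at 213, 269, 300.4, 221 and 226 CPM in LPS-vehicle, and at 211, 213, 208 and 248 CPM in LPS-CPD-4645 mice. Only LPS-vehicle mouse 3 reached into the sham-vehicle range, and the LPS-CPD-4645 mice were all below it. *Peg13* fell in LPS-CPD-4645 against sham-vehicle by 0.44 on the log2 scale (SE 0.10, adjusted p = 0.0027, edgeR, Benjamini-Hochberg adjusted). After LPS alone the log2 fold change was -0.28 (SE 0.10, adjusted p = 0.051, edgeR), which passed the test without mouse 4 of LPS-CPD-4645 (-0.28), or without LPS-vehicle mouse 2 (-0.31) or 3 (-0.36). It also passed in limma-voom (-0.30, adjusted p = 0.031), in DESeq2 (-0.28, adjusted p = 0.034), with no filter on low counts (adjusted p = 0.045, edgeR), with a mean count of at least 50 (adjusted p = 0.047, edgeR) and without both shallowest libraries (-0.36, adjusted p = 0.011, edgeR), so the side of the threshold depended on these choices. Of the 4 genes around it, *Chrac1*, a chromatin accessibility factor, was higher after LPS (0.38, SE 0.12) and in LPS-CPD-4645 against sham-vehicle (0.87, SE 0.13), and *Trappc9* did not pass either test. Against LPS-vehicle *Chrac1* (0.49, SE 0.12) and *Trappc9* (0.30, SE 0.09) were higher in LPS-CPD-4645 mice and 0 of the 4 were lower.

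Of the 8 RNAs other than *Neat1* and *Malat1*, 3 were higher (*Meg3*, *Miat* and *Snhg11*) and 0 lower in LPS-vehicle than in sham-vehicle at an adjusted p of at most 0.05, beside 11.1% and 8.86% of all genes tested. None of the 8 reached 2-fold, beside 5.68% of genes, and their median log2 fold change was 0.13, beside 0 over all genes. The count of 3 fell to 1 without any of 4 mice, sham-vehicle mouse 1 or 3 and LPS-vehicle mouse 1 or 3. In LPS-CPD-4645 against sham-vehicle, 0 of the 8 were higher and 2 lower (*Mirg* and *Peg13*), beside 19.5% and 19.3% of genes, 0 of them past 2-fold, beside 11.1%, with a median of -0.26. With only the 2 groups compared, 1 was higher and 5 lower. These 2 comparisons share their sham-vehicle mice. In LPS-CPD-4645 against LPS-vehicle, the comparison the selection used, 0 of the 10 were higher and 5 lower by the same threshold, 2 of them past 2-fold, beside 14.1%, 16.4% and 5.90% of genes, and nothing is read from these counts.

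**Figure D3:**
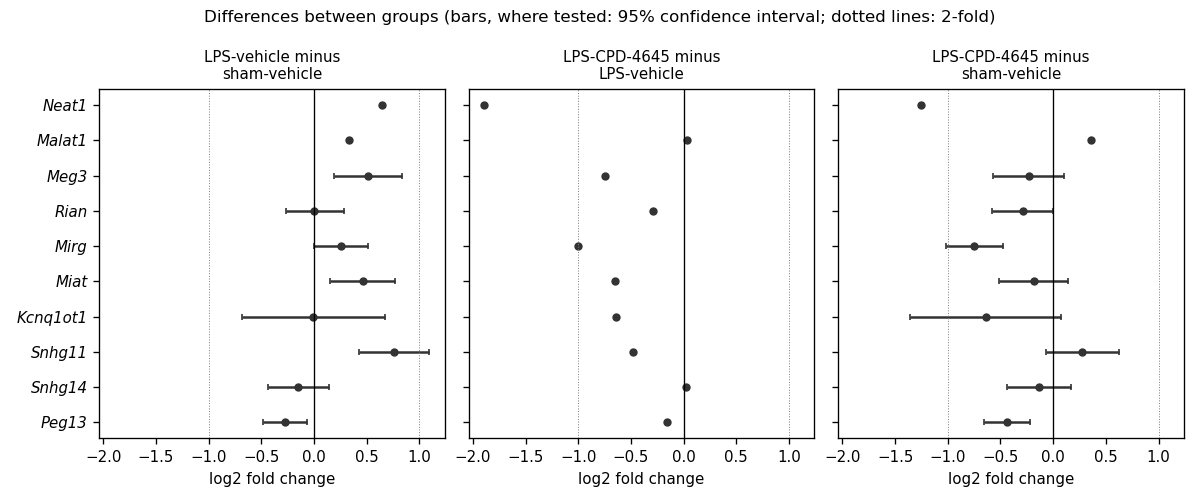
Log2 fold change of each RNA in the 3 comparisons, with 95% confidence intervals from the edgeR fit where a test is given (8 RNAs against sham-vehicle), a solid line at 0 and dotted lines at 2-fold. *Neat1* lies at 0.64, -1.89 and -1.25 and *Malat1* at 0.33, 0.03 and 0.36 from left to right.

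Several of the RNAs deviated together from their group means. Over the 13 mice, the Pearson correlation of log2 CPM minus the group mean was 0.97 for *Meg3* with *Miat*, 0.93 with *Snhg11*, 0.89 with *Neat1*, 0.78 with *Mirg* and 0.77 with *Kcnq1ot1*, but 0.17 with *Rian*, 0.26 with *Malat1*, 0.12 with *Peg13* and -0.09 with *Snhg14*. In the LPS-vehicle group, mice 1 and 3 were above and mice 2 and 5 below the group mean for *Meg3*, *Miat*, *Snhg11* and *Neat1*. Deviations of *Meg3* ran from -0.54 to 0.46 in this group and from -0.12 to 0.18 in the others. Its correlations therefore rest mainly on the 5 LPS-vehicle mice. *Rian* went with *Snhg14* (0.76) and against *Peg13* (-0.80). These are descriptions over mice that share a library and its scaling for all genes.

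**Figure D4:**
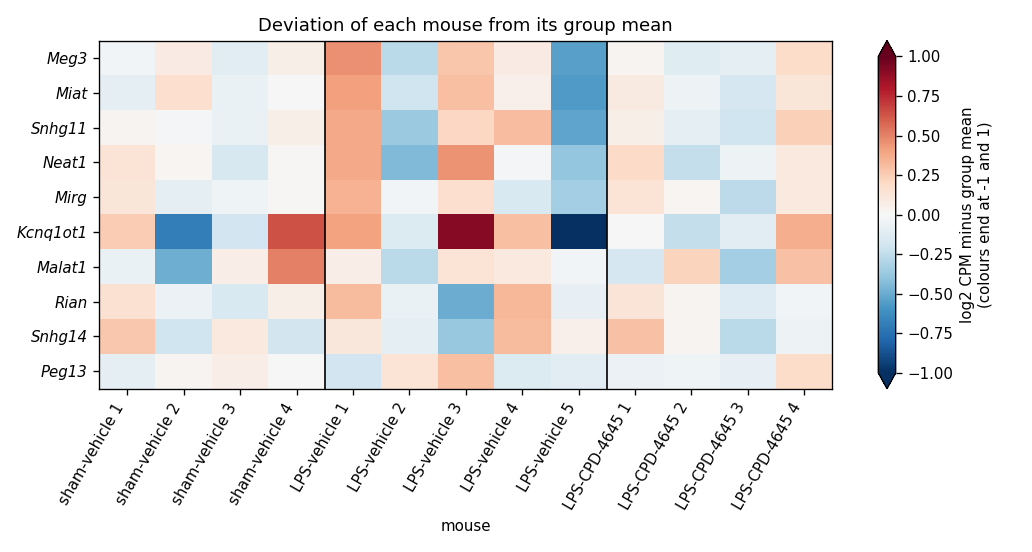
Log2 CPM of each RNA minus its group mean in each mouse, red above and blue below, with colours ending at -1 and 1 and lines between the groups. LPS-vehicle mice 1 and 3 are red and mouse 5 blue across *Meg3*, *Miat*, *Snhg11*, *Neat1*, *Mirg* and *Kcnq1ot1*.

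By the same measure, over the 14845 genes averaging 1 CPM or more, the genes most like *Meg3* were *Miat* (0.97), *Nktr* (0.95), *Setd4* (0.94), *Snhg11* (0.93) and *Akap8* (0.92). Those most like *Neat1* were *Zfp811* (0.97), *Gm3294* (0.93), *Mycbpap* (0.93), *Pan2* (0.92) and *Ccdc191* (0.92). Among those most like *Malat1* were *Peli1* (0.97), *Epha4* (0.95), *Anks1b* (0.94) and *Fbxw7* (0.94). Malat1 and Neat1, the neighbours on the chromosome, correlated at 0.18.

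No neuronal marker rose with *Meg3*, *Miat* and *Snhg11* after LPS. Of the 15 tested, 0 were higher and 6 lower in LPS-vehicle than in sham-vehicle (median -0.25), and 1 was higher and 4 lower in LPS-CPD-4645 than in sham-vehicle (median -0.18). Against LPS-vehicle, where *Meg3*, *Miat* and *Snhg11* were lower in LPS-CPD-4645 mice, 2 of the 15 were higher, *Tubb3* (0.92, SE 0.13) and *Rbfox3* (0.28, SE 0.10), and 0 lower (median 0.10). Of the 10 endothelial markers, 5 were higher and 2 lower after LPS (median 0.56), 0 were higher and 4 lower in LPS-CPD-4645 than in LPS-vehicle (median -0.38), and 3 were higher and 3 lower against sham-vehicle (median -0.07). Of 8 microglial markers in LPS-CPD-4645 mice, 0 were higher and 4 lower than in LPS-vehicle (median -0.54) and 1 higher and 6 lower than in sham-vehicle (median -0.61), while LPS-vehicle had 1 higher and 2 lower than sham-vehicle (median -0.14). Of 9 pericyte and smooth muscle markers, 1 was higher and 4 lower after LPS (median -0.49), 0 higher and 1 lower in LPS-CPD-4645 than in LPS-vehicle (median -0.02), and 1 higher and 6 lower than in sham-vehicle (median -0.64).

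The sum over 8 astrocyte markers was higher after LPS, as were *Meg3*, *Miat* and *Snhg11*, but most of the single markers were not called. Their summed level was 1649.0 to 2130.6 CPM among sham-vehicle mice, 2188.8 to 2831.6 CPM among those of LPS-vehicle, with no overlap, and 2025.4 to 2607.1 CPM among those of LPS-CPD-4645. Of the 8 markers, 3 were higher after LPS, *Gfap* (2.40, SE 0.19), *Aldh1l1* (0.98, SE 0.11) and *Aldoc* (0.42, SE 0.11), and 0 lower (median 0.11). *Gfap* averaged 95.2 CPM in sham-vehicle and 504 CPM in LPS-vehicle mice. The other 5 markers were not called and ran from -0.16 to 0.12. In LPS-CPD-4645 mice 2 were higher and 0 lower against sham-vehicle (median 0.13), and 0 were called against LPS-vehicle (median -0.08). Of 9 oligodendrocyte markers, 1 was higher and 4 lower after LPS (median -0.22), 2 were higher and 2 lower in LPS-CPD-4645 than in LPS-vehicle (median 0.08), and 0 higher and 3 lower against sham-vehicle (median -0.21). Of 6 choroid plexus markers, 0 were higher and 3 lower after LPS (median -0.43), 2 higher and 0 lower in LPS-CPD-4645 than in LPS-vehicle (median 0.08), and 0 higher and 1 lower against sham-vehicle (median -0.20). Of 5 fibroblast markers, 1 was higher and 2 lower after LPS (median -0.67), 0 were called in LPS-CPD-4645 against LPS-vehicle (median 0.13), and 1 was higher and 2 lower against sham-vehicle (median -0.04). The part of cell composition in the levels of these RNAs was not tested.

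Beside the 10 RNAs, 13 other snoRNA host genes were tested, short spliced RNAs whose introns carry snoRNAs that guide the modification of ribosomal and other RNA. After LPS 10 were higher and 0 lower (median 0.68), led by *Zfas1* (1.36, SE 0.12), *Snhg1* (0.86, SE 0.12) and *Gas5* (0.71, SE 0.09), and in LPS-CPD-4645 against sham-vehicle 12 were higher and 0 lower (median 0.87). Against LPS-vehicle 3 were higher, *Snhg3*, *Snhg5* and *Snhg6* (0.38 to 0.47), and 0 lower (median 0.27). *Snhg11* was higher after LPS, was not called in LPS-CPD-4645 against sham-vehicle (0.27) and was at -0.48 against LPS-vehicle. *Snhg14* and *Rian* were not called against sham-vehicle. Of 20 other long noncoding RNAs tested, 2 were higher and 1 lower after LPS, *H19* (3.67, SE 0.44), *Mir17hg* (1.36, SE 0.36) and *Sox2ot* (-1.22, SE 0.18), and 3 were higher and 8 lower in LPS-CPD-4645 against sham-vehicle (median -0.23). Against LPS-vehicle 1 was higher, *Mir9-3hg* (0.62, SE 0.10), and 7 lower, with a median of -0.27. Over the 1256 genes of long noncoding type, 5.73% were higher and 2.47% lower after LPS, and 10.7% higher and 17% lower in LPS-CPD-4645 against sham-vehicle, with medians of 0.08 and -0.22. In LPS-CPD-4645 against LPS-vehicle 5.02% were higher and 15.7% lower, with a median of -0.30, beside -0.02 over all genes.

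**Figure D5:**
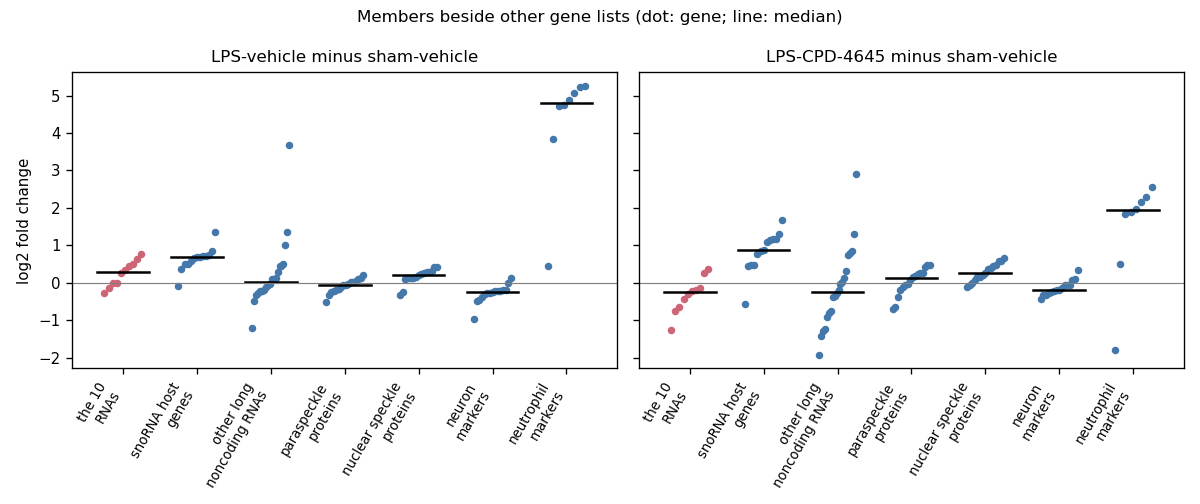
Log2 fold change of each gene (dot) and median (line) for the 10 RNAs and 6 other lists, for LPS-vehicle against sham-vehicle on the left and LPS-CPD-4645 against sham-vehicle on the right. The snoRNA hosts have medians of 0.68 and 0.87 and the 10 RNAs of 0.29 and -0.26. The latter include *Neat1* and *Malat1*, which were selected on their values, and over the other 8 RNAs the medians are 0.13 and -0.26.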

How the data were processed

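RNA of the neurovascular fraction of 13 mice was sequenced as stranded poly(A) libraries, 75-bp single-end. The authors aligned the reads to GRCm38 (mm10) with STAR 2.5.2a and deposited raw, unnormalized counts per gene (GENCODE M9, basic set). Which strand column was kept is not given in the sources used here, so overlapping genes on opposite strands may share reads. Of the 47643 genes, 47224 matched GENCODE M21, from which symbols, positions and exon lengths were taken. The 10 RNAs and the gene lists were chosen with earlier results of these data known.

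The counts were filtered with filterByExpr (minimum count 10, minimum total 15), scaled by TMM and tested with edgeR 4.0.16 in R 4.3.3 by a quasi-likelihood fit of the 3 groups over all 13 mice, with Benjamini-Hochberg adjustment over 17285 genes. The fit was tested on simulated data. Levels are CPM of TMM-scaled libraries, with a prior count of 2 on the log2 scale. Depth was 7813559 to 55133373 counts per library, and replicates differed by 9.82 to 61.1 times counting error (chi-square per gene), so spread between mice set the precision. Ratios were taken from raw counts and tested by exact permutation over mice in scipy 1.17.1. Every gene of a locus list that passed a test is named, and of each other list at most the 3 with the largest change after LPS, and those named in other comparisons of these lists were chosen after their values were seen. A few gene results that this rule covers are not reported here. The alternatives were limma-voom (limma 3.58.1), DESeq2 1.42.0, DESeq2 size factors in edgeR, no filter, a floor of 50 on the mean count, a fit restricted to 2 groups, a replicate block, each mouse left out and, chosen after seeing the data, the 2 shallowest libraries left out.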

Additional observations from a re-analysis of the deposited data

Results flagged for a closer look

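*Peg13* in LPS-CPD-4645 mouse 4 stood at 248 CPM, far from the 208 to 213 CPM of the other 3 mice of its group by Dixon's gap test at 95%. It was the only one of 39 group values checked (10 RNAs and 3 ratios in 3 groups) to do so, and chance marks about 1 in 20.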

How the results depend on the processing

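Of 93 recomputed counts and ratios, 88 stayed within 1.5 times the count or on the same side of the threshold. LPS-CPD-4645 against sham-vehicle called 7 RNAs with only the 2 groups compared and 5 with the replicate block, against 3. In edgeR the block added *Rian* (-0.28, adjusted p = 0.043) and *Kcnq1ot1* (-0.59, adjusted p = 0.02) there, and *Mirg* after LPS (0.33, adjusted p = 0.033). With a mouse left out, the RNAs called ranged from 2 to 5 after LPS, against 4, and from 3 to 4 in LPS-CPD-4645 against sham-vehicle. These counts are over all 10 RNAs and hold *Neat1* as a description. The same-numbered mice did not deviate together (12 pairs, correlations -0.035 to 0.114), so the replicate block is no pairing.

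Of the log2 fold changes of single RNAs, 569 kept direction and side, 21 lost and 26 gained the call, and 14 changed sign, all from values near 0. After LPS, *Kcnq1ot1* (-0.01) became 0.02 in DESeq2, 0.27 with the replicate block, 0.06 without sham-vehicle mouse 1, 0.24 without sham-vehicle mouse 4, 0.06 without LPS-vehicle mouse 2 and 0.23 without LPS-vehicle mouse 5, its range with a mouse left out being -0.24 to 0.24. In LPS-CPD-4645 against LPS-vehicle, *Snhg14* (0.02) became -0.04 in limma-voom, -0.01 without LPS-vehicle mouse 2, -0.06 without LPS-vehicle mouse 3, -0.07 without LPS-CPD-4645 mouse 1 (range -0.07 to 0.11) and -0.16 without both shallowest libraries, and *Malat1* (0.03) became -0.04 without LPS-vehicle mouse 2, -0.04 without LPS-CPD-4645 mouse 2 and -0.06 without LPS-CPD-4645 mouse 4 (range -0.06 to 0.14). The cause was not tested.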
